A study of Mus musculus with 8 samples.

Results

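The genes described here are 10 pan-epithelial identity and barrier genes: Epcam, Cxadr, Grhl2, Elf3, Esrp1, St14, Prss8, Spint2, Rab25 and Crb3. They were taken by name, as all probe sets annotated to exactly 1 of these symbols, which gave 21 of 34945 single-symbol probe sets and 10 of 18193 genes on the E18.5 array. On the older E11.5 array 10 of 10833 probe sets and 8 of 8251 genes matched, with Grhl2 and St14 unmatched.

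The series holds 8 Affymetrix arrays of embryonic mouse tissue, all in the FVB/N strain. Lungs of embryonic day E18.5 gave 3 double transgenic samples, labelled SP-C/MIA overexpressor and called MIA bitransgenic here. The other 3 E18.5 samples were single transgenic, labelled SP-C/MIA control and described in the design as littermates. SP-C is surfactant protein C, whose promoter is active in distal lung epithelium, and MIA is a secreted protein made in cartilage and by melanoma cells. Which of the transgenes the controls carried, and whether a sample was 1 embryo or a pool, was not stated in the labels. At E11.5, 1 lung and 1 trachea were measured on the other array type. The E18.5 comparison asks how MIA misexpression alters the lung, and the E11.5 comparison which genes differ between lung and trachea.

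Epithelial cells of every organ share a core of genes that hold them together as a sheet. Epcam and Cxadr encode adhesion proteins of the lateral membrane and the tight junction, Grhl2 and Elf3 encode transcription factors of epithelial cells, and Esrp1 encodes a protein that sets epithelial patterns of splicing. Matriptase (St14) and prostasin (Prss8) are membrane serine proteases that act together on the epithelial surface, and Spint2 encodes a Kunitz-type inhibitor of such proteases. Rab25 encodes a GTPase of apical recycling, and Crb3 a small Crumbs protein of apical polarity. In lung these genes are expressed along both airway and alveolar epithelium.

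Promoter sequence shows what lies ahead of the genes' starts. RefSeq windows on GRCm38.p6, from 250 bases before to 50 after a gene's start, matched 5 of the 10 genes (Epcam, Elf3, Spint2, Rab25 and Crb3, with Crb3 having a pair of starts). Grhl2, Esrp1, Cxadr, St14 and Prss8 had no entry. On both strands, the Grainyhead-type letters AACCGGTT were in none of the 5 genes' windows and in 0.146% of all 32851 windows. The looser AACNNGTT, which includes them, was in 1 gene, Rab25, and in 4.2% of all windows. The Ets-type letters GGAAGT were in 1 gene, Crb3, and in 23.8% of all windows. A match is a description of the letters and not a binding site. The 250 bases upstream of Epcam (the largest change over all arrays; chr17:87635729-87635978, plus strand), Rab25 (the negative change; chr3:88548280-88548529, minus strand) and the downstream start of Crb3 (probe sets that disagree; chr17:57061981-57062230, plus strand) are given from 5′ to 3′, with matched letters in capitals.
Epcam: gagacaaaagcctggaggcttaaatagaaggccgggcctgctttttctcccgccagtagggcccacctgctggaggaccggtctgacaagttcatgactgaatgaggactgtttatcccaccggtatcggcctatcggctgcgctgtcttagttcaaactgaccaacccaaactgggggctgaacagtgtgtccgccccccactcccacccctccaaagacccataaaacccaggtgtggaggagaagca
Rab25: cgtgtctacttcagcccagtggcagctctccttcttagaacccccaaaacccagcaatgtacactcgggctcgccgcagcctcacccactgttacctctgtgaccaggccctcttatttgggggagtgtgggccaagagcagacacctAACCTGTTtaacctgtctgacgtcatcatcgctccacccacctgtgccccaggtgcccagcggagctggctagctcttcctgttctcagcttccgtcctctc
Crb3: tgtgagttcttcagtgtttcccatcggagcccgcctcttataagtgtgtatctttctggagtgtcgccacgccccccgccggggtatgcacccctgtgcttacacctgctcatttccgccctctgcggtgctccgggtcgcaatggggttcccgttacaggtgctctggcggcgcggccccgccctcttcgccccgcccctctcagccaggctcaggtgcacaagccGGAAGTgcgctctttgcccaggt
The Rab25 match starts 102 bases before the start of the gene. Epcam shows none of the searched letters in this stretch.

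The E18.5 arrays had medians of 415 to 464 at equal trimmed means of 1500. Mia, the misexpressed gene, read 31399, 42666 and 41546 in bitransgenic lungs, against 1071, 1070.5 and 734 in controls, which fits the labels. The lung epithelial markers Sftpc, Foxa2 and Cdh1 read well above the array medians on every array. A further such marker, Nkx2-1, was dim and close to those medians. It read 464, 446 and 425 in bitransgenic lungs, against 370, 378 and 466 in controls. Control 3 stood apart: its correlation with the others averaged 0.957, and that of each of the other 5 arrays 0.965 to 0.975. Bitransgenic 3 was next at 0.965, and these 2 arrays also had the highest medians, 464.2 in bitransgenic 3 and 460.2 in control 3, against 415 to 426 on the other 4. Control 3 also had the lowest ratio of the 3' to the 5' Actb probe set, a sign of RNA quality. A high ratio marks 3' bias, so the low one in control 3 is not a sign of poorer RNA. The ratios were 1.646, 1.506 and 1.615 in bitransgenic lungs, against 1.501, 1.465 and 1.285 in controls. All 3 bitransgenic ratios lay above all 3 controls, by a narrow gap, so the Actb ratio moved with the groups. The same ratio for Gapdh overlapped between the groups: 0.9963, 0.9209 and 1.079 in bitransgenic lungs, against 0.9206, 0.921 and 0.7814 in controls. Control 3 was the lowest array on both ratios. Each gene is therefore also given without control 3 and from a fit with the Actb ratio as a further term, called the Actb-adjusted fit. The 2 are not separate checks, since control 3 had the lowest Actb ratio. As that ratio moved with the groups, the Actb-adjusted fit cannot fully separate it from the group difference. By sex-linked signals, 1 sample of each group read as male and 2 as female.

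Most of the 10 pan-epithelial genes had somewhat higher signals in the bitransgenic lungs, by amounts that did not pass the test. Of the 10 genes, 9 had a positive log2 change and 1, Rab25, a negative one, but none passed the threshold of 0.05 (limma adjusted p between 0.378 and 0.687, n = 3 per group). Over all 12625 genes tested, 85 passed, or 0.673% (0.238% higher and 0.436% lower). At an unadjusted p under 0.05 there were 4 of the 10, all higher, against 9.69% of all genes in either direction and 4.53% that were higher. The groups did not overlap for 6 of the 10, all higher in bitransgenic lungs, against 8.86% of all genes higher and 7.56% lower without overlap (16.4% in all). The median log2 change of the 10 was 0.32, beside 0.01 over all genes tested, of which 52.6% were positive. In fold terms, the 9 positive changes ran from 1.18 to 1.55. Among these 9, that of Crb3 held only for its brightest probe set, and its other probe sets had negative changes. The lungs were measured whole, so a change in the number of epithelial cells and one in RNA per cell cannot be told apart.

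**Figure D1:**
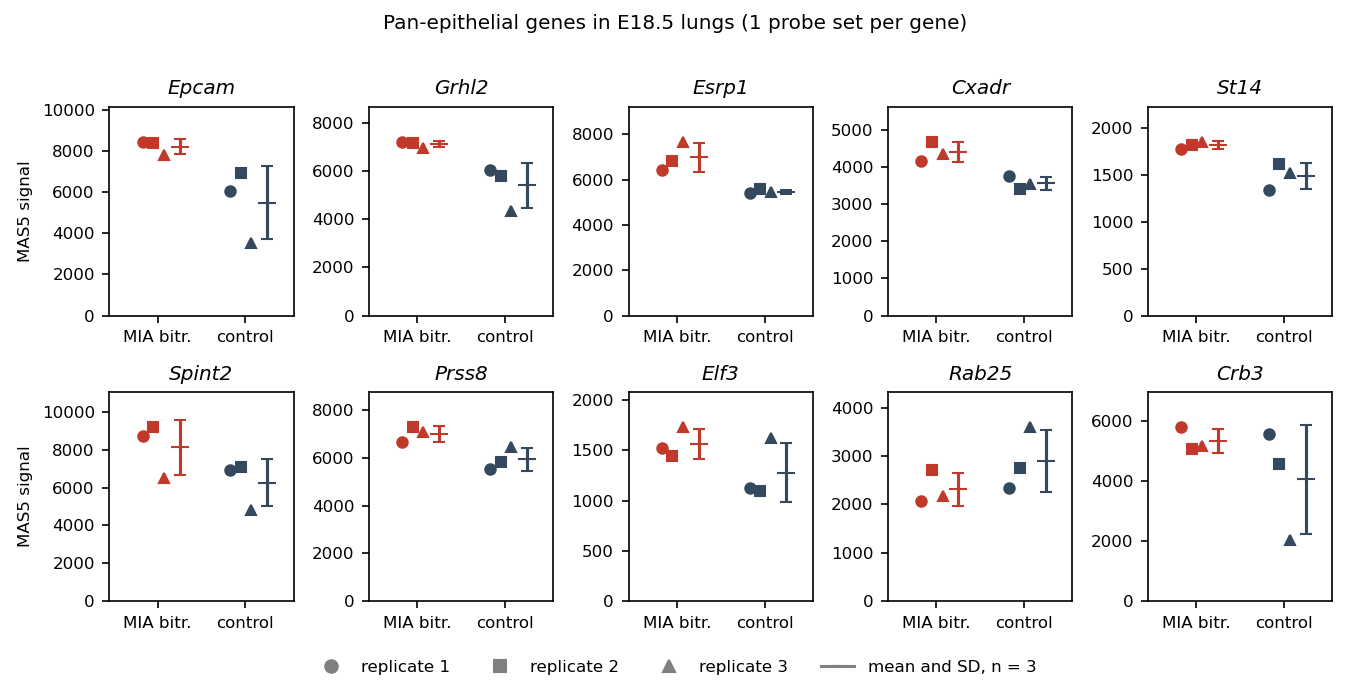
MAS5 signal (linear scale, y axes from 0) of the 10 genes in each E18.5 array, with MIA bitransgenic lungs on the left and single transgenic controls on the right. Symbols mark the 3 replicates and the bars the mean and SD (n = 3). The groups do not overlap for Epcam, Grhl2, Esrp1, Cxadr, St14 and Prss8, and control 3 (triangle) is low for Epcam, Grhl2, Spint2 and Crb3.

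Epcam (chromosome 17, 87635979 to 87651127 on GRCm38.p6) had the largest change of the 10 in the fit on all arrays, but not without control 3 or in the Actb-adjusted fit, where that of Elf3 was larger. Its main probe set, 1416579_a_at, read 8449.8, 8364 and 7802 in bitransgenic lungs, against 6041, 6913 and 3507 in controls. All bitransgenic values lay above all controls, and control 3 was far under the other controls. The log2 change was 0.63 (SE 0.22, 95% confidence interval 0.13 to 1.13, limma adjusted p = 0.378). Without control 3 it was 0.34, and 0.13 in the Actb-adjusted fit (limma adjusted p = 0.297 and 0.931). Its second probe set, 1447899_x_at, read 2719.8, 2149.9 and 2387 in bitransgenic lungs, against 1974, 2397 and 1269 in controls. There the groups overlapped, and control 3 was again the lowest of the 6.

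Cxadr (chromosome 16, 78301226 to 78359785), the coxsackievirus and adenovirus receptor, was measured by 5 probe sets. The brightest, 1453282_at, read 4156, 4681 and 4345 in bitransgenic lungs, against 3749, 3393 and 3531 in controls. The groups did not overlap and control 3 lay between the other controls. Cxadr had a log2 change of 0.30 (SE 0.12, 95% confidence interval 0.02 to 0.58, limma adjusted p = 0.481), and it was 0.29 without control 3 and 0.33 in the Actb-adjusted fit. Of the other 4 probe sets, 1452391_at, 1449949_a_at and 1427321_s_at had log2 changes of 0.25, 0.17 and 0.08 with overlapping groups. The last, 1451865_at, was under the pseudocount of 86.43 on 4 of 6 arrays and did not pass the filter on low values.

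The transcription factor genes had positive changes as well. Grhl2 (chromosome 15, 37232821 to 37363569), a Grainyhead family gene, read 7230.2, 7177 and 6978 in bitransgenic lungs, against 6054, 5804 and 4356 in controls by its brightest probe set, 1427046_at. The groups did not overlap, and the bitransgenic arrays were close to one another while control 3 was low. Its difference was 0.41 on the log2 scale (SE 0.15, 95% confidence interval 0.08 to 0.74, limma adjusted p = 0.394), 0.26 without control 3 and 0.14 in the Actb-adjusted fit.

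The other 3 Grhl2 probe sets were dim. For 1431877_a_at the values were 456, 379 and 441 in bitransgenic lungs, against 538, 362 and 702 in controls, with overlap and the highest value in control 3. Its log2 change was -0.24 (limma adjusted p over probe sets = 0.79), opposite to the bright probe set. Neither 1431878_at nor 1452643_at passed the filter. The first of them read 312, 268 and 234 in bitransgenic lungs, against 219.6, 179.7 and 154 in controls.

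Elf3 (chromosome 1, 135253574 to 135258472), an Ets family gene of epithelia, read 1527, 1443 and 1733 in bitransgenic lungs, against 1122, 1096 and 1620.2 in controls. Control 3 was inside the bitransgenic range, so the groups overlapped, while the other controls were under all bitransgenic values. Elf3 differed by 0.29 on the log2 scale (SE 0.18, 95% confidence interval -0.11 to 0.69, limma adjusted p = 0.684). It was 0.46 without control 3 (limma adjusted p = 0.254) and 0.56 in the Actb-adjusted fit (limma adjusted p = 0.741). Unlike those of Epcam and Grhl2, its change was larger in both of those fits.

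Esrp1 (chromosome 4, 11331933 to 11386783), the epithelial splicing regulator, had controls that lay close together. It read 6433, 6811 and 7676 in bitransgenic lungs, against 5411, 5572 and 5427 in controls, with no overlap. The difference was 0.34 on the log2 scale (SE 0.12, 95% confidence interval 0.07 to 0.62, limma adjusted p = 0.388). It was 0.34 without control 3 and 0.34 in the Actb-adjusted fit.

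The membrane proteases and their inhibitor also read higher. St14 (chromosome 9, 31088590 to 31131811) read 1777, 1818 and 1859 in bitransgenic lungs, against 1339.6, 1615 and 1522 in controls, with no overlap. Its log2 change was 0.27 (SE 0.14, 95% confidence interval -0.03 to 0.58, limma adjusted p = 0.59). Prss8 (chromosome 7, 127925717 to 127930149) read 6659.65, 7301 and 7085 in bitransgenic lungs, against 5534, 5829.8 and 6468 in controls. The groups were apart by a small gap, since control 3 lay close under bitransgenic 1. The log2 change of Prss8 was 0.24 (SE 0.12, 95% confidence interval -0.04 to 0.51, limma adjusted p = 0.61). Without control 3 the changes of St14 and Prss8 were 0.29 and 0.30, and in the Actb-adjusted fit 0.33 and 0.39.

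Spint2 (chromosome 7, 29256330 to 29282059) had 2 probe sets. The one with the higher mean, 1438968_x_at, read 8735, 9218 and 6492 in bitransgenic lungs, against 6934, 7077 and 4812 in controls. Replicate 3 was the lowest of its group on both sides, and the groups overlapped. This gave a log2 change of 0.38 (SE 0.19, 95% confidence interval -0.05 to 0.80, limma adjusted p = 0.598), 0.20 without control 3 and 0.13 in the Actb-adjusted fit. The other probe set, 1451935_a_at, read 5409.9, 5064 and 5339.6 in bitransgenic lungs, against 4329, 4898 and 4479.7 in controls. There the groups did not overlap, at a smaller log2 change of 0.20 (limma adjusted p over probe sets = 0.66).

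Rab25 (chromosome 3, 88542029 to 88548279) was the 1 gene with a negative change. It read 2061, 2709 and 2169 in bitransgenic lungs, against 2337, 2759 and 3603 in controls. The groups overlapped, and control 3 was the highest of the 6. Rab25 had a log2 change of -0.30 (SE 0.18, 95% confidence interval -0.72 to 0.11, limma adjusted p = 0.684). It was -0.14 without control 3, and 0.13 in the Actb-adjusted fit, where its sign turned (SE 0.17, limma adjusted p = 0.908).

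Crb3 (chromosome 17, 57062201 to 57065918) gave no single direction, since its 3 probe sets went different ways. The brightest, 1434851_s_at, read 5801, 5075 and 5153 in bitransgenic lungs, against 5561, 4575 and 2033 in controls. Its log2 change of 0.50 (SE 0.31, 95% confidence interval -0.19 to 1.19, limma adjusted p = 0.687) came with a control 3 value far under all others. Without that array it was 0.08, and in the Actb-adjusted fit -0.33, a change of sign (SE 0.23, limma adjusted p = 0.85). In 1424809_at control 3 was instead the highest: 1726, 1884 and 1763 in bitransgenic lungs, against 1442, 2069 and 3395 in controls. The third, 1455115_a_at, read 1497, 1878 and 1315 in bitransgenic lungs, against 1398, 1730.1 and 2032 in controls. Both of these had negative log2 changes, -0.27 and -0.13, with overlapping groups. The direction for Crb3 thus differed by probe set, and control 3 was the array on which they lay furthest apart.

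**Figure D2:**
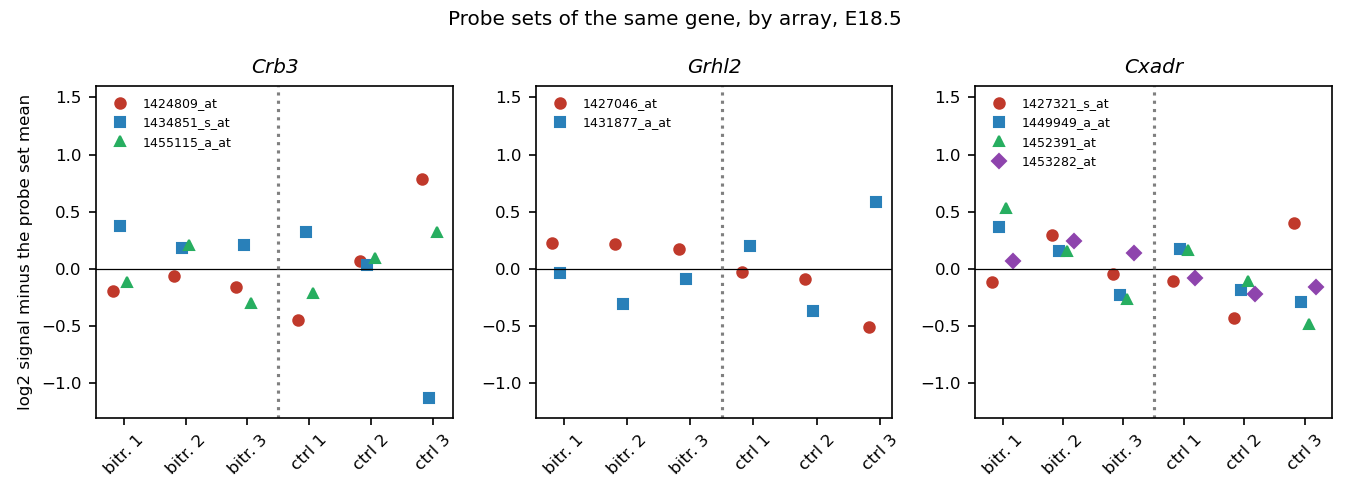
Log2 signal of each probe set past the filter, minus that probe set's mean over the 6 arrays (y axis), for Crb3, Grhl2 and Cxadr by array (x axis, MIA bitransgenic lungs left of the dotted line and controls right of it). In control 3, 1434851_s_at of Crb3 and 1427046_at of Grhl2 lie under 0, while 1424809_at of Crb3 and 1431877_a_at of Grhl2 lie over it.

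Over probe sets, 18 of the 21 passed the filter, and the other 3 belong to Grhl2 and Cxadr. Among the 18, 14 had a positive and 4 a negative log2 change, the negative ones in Grhl2, Rab25 and Crb3. None passed (limma adjusted over 27022 probe sets, of which 120, or 0.444%, passed). The 4 with an unadjusted limma p under 0.05 represent Epcam, Grhl2, Esrp1 and Cxadr. They are those counted over genes above, where 9.69% of all genes had such a p. The groups did not overlap for 7 of the 18, all higher, against 9.29% of all probe sets tested that were higher without overlap.

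**Figure D3:**
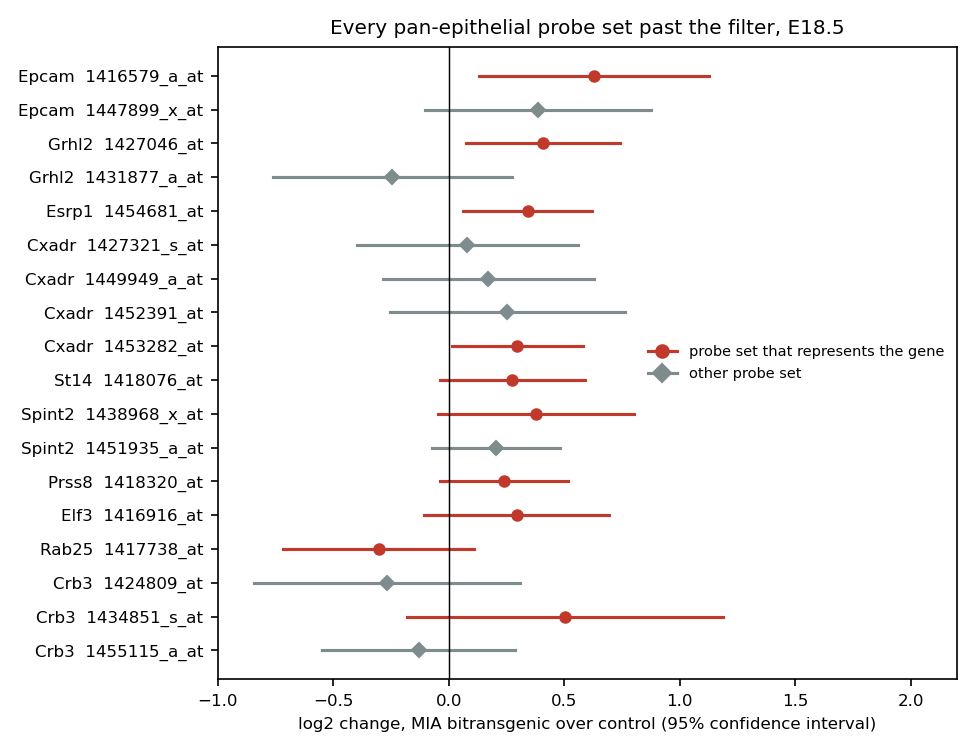
Log2 change of MIA bitransgenic over control lungs (x axis) with its 95% confidence interval from limma, for each of the 18 probe sets past the filter. Circles mark the probe set that represents its gene in the test over genes and diamonds the others. The intervals of Epcam, Grhl2, Esrp1 and Cxadr by their circles lie above 0, before any adjustment, and all others span it.

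Leaving out control 3, which was the lowest array for 4 of the 10 genes and the highest for 1, gave the same count of signs, 9 positive and 1 negative, where 54.5% of all genes were positive. The groups then did not overlap for 7 of the 10, all higher in bitransgenic lungs, against 16% of all genes higher without overlap in that fit and 8.86% with all arrays. In that fit Esrp1, Cxadr, St14 and Prss8 stayed near their values from all arrays, Epcam, Grhl2, Spint2, Crb3 and Rab25 came closer to 0 by over 1.5 times, and Elf3 went further from it. None passed in any fit that left out 1 array. With array weights, a fit that did not fully converge and gave bitransgenic 3 a weight of 0.364, control 2 one of 6.28 and control 3 one of 0.223, Grhl2, Esrp1, Cxadr, Prss8 and Elf3 passed (5 of 10, against 10.6% of all genes, 4.82% higher).

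Other epithelial genes gave a mixed picture, with few calls. Of 30 measured genes of epithelial adhesion and junctions, 21 had a positive and 9 a negative log2 change, 1 rose and none fell, and the median was 0.10 (0.22 in the Actb-adjusted fit). The gene that rose was Dsg2, a desmosomal cadherin, which read 2397, 2396 and 2648 in bitransgenic lungs, against 1148, 1098 and 1317 in controls (log2 change 1.01, SE 0.14, limma adjusted p = 0.0111). Cgn and Marveld3, both of tight junctions, had no overlap and log2 changes of 0.80 and 0.58 that missed the threshold (limma adjusted p = 0.0659 and 0.146). The simple keratin gene Krt19 had -0.48 (limma adjusted p = 0.304). Cdh1, E-cadherin, had 0.37 with groups that overlapped widely (limma adjusted p = 0.757).

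Relatives of Grhl2, Elf3 and Esrp1 did not pass either. Among 16 measured transcription and splicing regulators 12 were positive and 4 negative, with a median of 0.12. Foxa1, a forkhead factor of lung endoderm, had the smallest p: 22451, 23955 and 23062 in bitransgenic lungs, against 15730.1, 13648 and 9838 in controls (log2 change 0.85, SE 0.17, limma adjusted p = 0.0659). Grhl3 and Grhl1 had log2 changes of 0.59 and 0.56 at low signals (limma adjusted p = 0.376 and 0.491), and Foxa2 had 0.29 (limma adjusted p = 0.481). The close relatives Esrp2 and Elf5 had 0.10 and 0.12.

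The protease network beyond the 3 members had 16 measured genes, 6 positive and 10 negative, with a median of -0.10. Scnn1g, the gamma subunit of the epithelial sodium channel that such proteases can cleave, fell (log2 change -1.19, limma adjusted p = 0.0376). Its partner subunits Scnn1b and Scnn1a had -0.82 and -0.48 and missed the threshold (limma adjusted p = 0.314 and 0.711). The Scnn1a groups overlapped: 3179, 3849 and 3640 in bitransgenic lungs, against 2864, 5096 and 8462 in controls. Met, the receptor for hepatocyte growth factor, had -0.65 (limma adjusted p = 0.156) and the membrane protease gene Tmprss6 0.76 at low signals (limma adjusted p = 0.191). Spint1, which encodes the inhibitor most like that of Spint2, had -0.10 (limma adjusted p = 0.924).

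Among 22 measured polarity and recycling genes none passed, 8 were positive and 14 negative, and the median was -0.05 (0.06 in the Actb-adjusted fit, a change of sign). Pard6b, a subunit of the apical Par complex, had the smallest p: 2863, 4178 and 2525 in bitransgenic lungs, against 6199.97, 5844 and 6355 in controls (log2 change -0.96, SE 0.18, limma adjusted p = 0.0597). Its kinase partner Prkci had 0.56 (limma adjusted p = 0.273). The small GTPase gene Rab17 had 0.48 and the membrane linker gene Ezr 0.28, both without overlap (limma adjusted p = 0.3 and 0.503). The Rab11 genes closest to Rab25 differed little, with -0.03 for Rab11a and -0.15 for Rab11b.

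Some genes of differentiated alveolar cells fell on the same arrays. For type II these were Scd1, Sftpa1, Slc34a2, Lpcat1 and Abca3, with log2 changes of -4.94, -4.45, -1.68, -1.19 and -0.97 (limma adjusted p at most 0.0181). For type I they were Aqp5, Clic5 and Rtkn2, with -3.65, -1.43 and -1.47 (limma adjusted p at most 0.0409). In the alveolar type II list the summed signal of 11 genes was 159610 to 203730 in bitransgenic lungs, against 362200 to 397450 in controls, with 5 genes that fell and a median log2 change of -1.02. Of the 11, 9 were negative and 2 positive: Sftpc, the surfactant protein C gene, averaged 85319 in bitransgenic lungs and 84709.7 in controls (log2 change 0.00), and Etv5, an Ets factor gene, had 0.08. In the type I list of 9 genes the sums were 201660 to 225090 in bitransgenic lungs, against 264760 to 281350 in controls, with 3 that fell, all 9 negative and a median log2 change of -0.33. The 10 airway genes had sums of 136440 to 157570 in bitransgenic lungs, against 136690 to 176120 in controls, which overlapped, with 2 rises and a median of -0.04. The airway genes that rose were Aldh1a7 and Cckar, by 0.77 and 1.04 on the log2 scale (limma adjusted p = 0.00904 and 0.0308). These 3 lists were chosen with earlier results on the same arrays known. The difference between them and the 10 genes was not tested.

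Among markers of other cell types, no endothelial or mesenchymal gene passed. All 12 endothelial genes had negative log2 changes, and their summed signal was 73392 to 81172 in bitransgenic lungs, against 96694 to 140170 in controls. Their median log2 change was -0.51, and -0.14 in the Actb-adjusted fit. The 14 mesenchymal genes, among them the repressor genes Zeb1 and Zeb2, had 6 positive and 8 negative changes, none called, with a median of -0.13 (0.04 in the Actb-adjusted fit, a change of sign) and sums of 307790 to 348600 in bitransgenic lungs, against 329330 to 383650 in controls. Zeb2 and Zeb1 had log2 changes of -0.33 and -0.19 without overlap (limma adjusted p = 0.506 and 0.682). Pdgfra and Vim had -0.38 and -0.25 with overlapping groups (limma adjusted p = 0.6 and 0.602). Of the 6 positive changes that of Twist2, also a repressor gene, was the largest, at 0.37 (limma adjusted p = 0.685). The part of cell makeup in the values of the 10 genes was not tested.

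**Figure D4:**
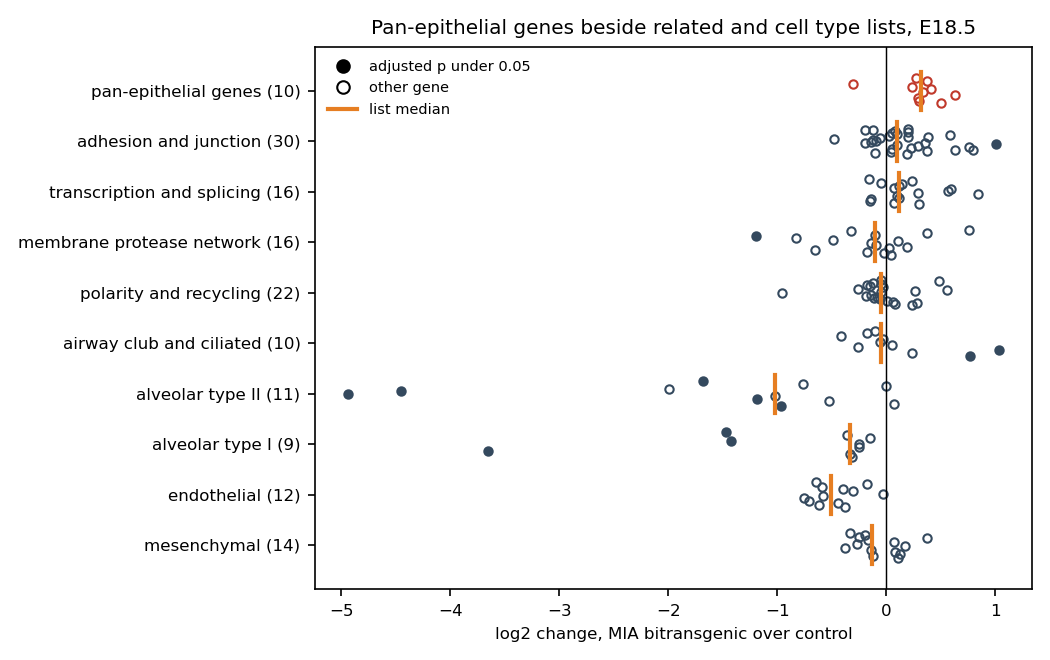
Log2 change of MIA bitransgenic over control lungs (x axis) for each measured gene of 10 lists, with the number of genes in brackets. Filled points passed an adjusted p under 0.05, and orange bars mark list medians. The pan-epithelial genes have a median of 0.32 with none filled, while the type II genes reach down to -4.94 with 5 filled.

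At E11.5, 4 of the 8 matched genes passed the filter, and none of these 4 was over 2-fold apart between lung and trachea. With 1 array per tissue there was no test, and 3.42% of all genes with a signal above the median were over 2-fold apart. Crb3, by probe set 104585_at, read 1602 in lung and 1222 in trachea (log2 ratio 0.37). Prss8 read 952 in lung and 819 in trachea by 100909_at (log2 ratio 0.20), and 257 in lung and 291 in trachea by the dimmer 160566_at (log2 ratio -0.14). Rab25 read 604 in lung and 529 in trachea (log2 ratio 0.17). Esrp1 was the 1 of these 4 on the trachea side, with 393 in lung and 555 in trachea (log2 ratio -0.42). The signs of these 4 genes, which passed the filter on low values, were thus mixed, and their sizes small.

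The other 4 genes were too dim at E11.5 to pass the filter. Epcam read 287 in lung and 323 in trachea, and Elf3 243 in lung and 158.9 in trachea. Cxadr read 189 in lung and 64 in trachea, the trachea value being under the pseudocount of 84.34. The probe set of Spint2 was under the pseudocount on both arrays, at 32.3 in lung and 26.2 in trachea, so it gave no usable ratio. A second Crb3 probe set, 104584_f_at, was also under it in lung (65.1, against 178.5 in trachea). The array types differ in their probes, so no level at E11.5 was set against one at E18.5.

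Most other epithelial genes past the filter at E11.5 were under 2-fold apart. Of 19 adhesion and junction genes past the filter, 14 had a positive and 5 a negative log2 ratio of lung over trachea, none over 2-fold, with a median of 0.07 beside -0.00 for all genes past the filter. Among these 19 the claudin genes Cldn6 and Cldn4 had the largest ratios, 0.88 and 0.78, and Cdh1 had 0.34 (1805 in lung and 1407 in trachea). The filter is set on the mean, so it also dropped genes dim in 1 tissue: Krt19 read 561 in lung and 19.4 in trachea, and Tfap2c 104 in lung and 614 in trachea. Among 13 polarity genes 1 was over 2-fold apart, Ezr, with 3232 in lung and 1567 in trachea. Of the 4 regulators past the filter, Elf4 had a log2 ratio of 0.87, Foxa1 of 0.82, Foxa2 of 0.04 and Rbfox2 of -0.08. Of 13 mesenchymal genes 11 had negative ratios, with a median of -0.42, and 2 were over 2-fold apart in opposite directions. Twist1 read 228 in lung and 2353 in trachea, and Snai2 read 14752 in lung and 7219 in trachea. The part of tissue makeup in these ratios was not tested.

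**Figure D5:**
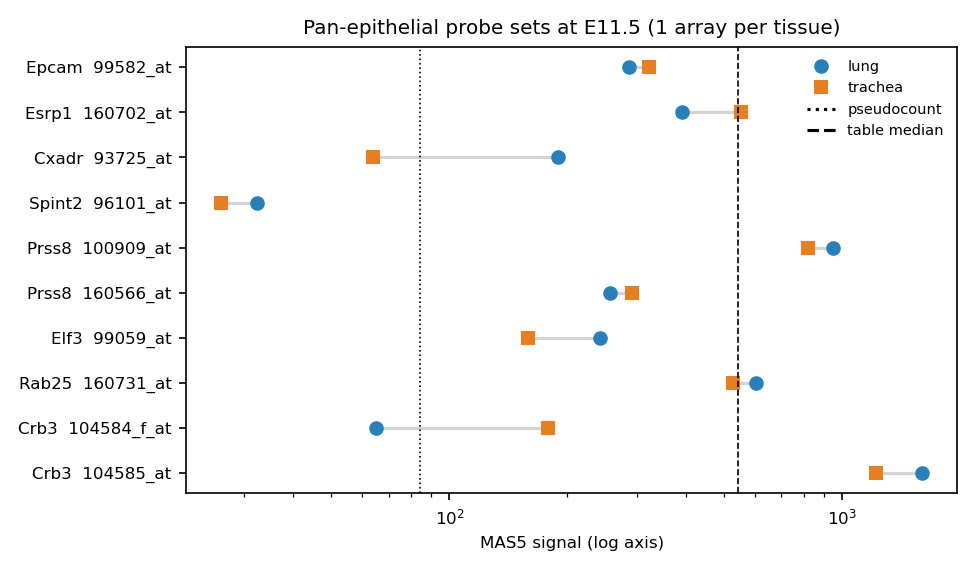
MAS5 signal (log axis) of the 10 pan-epithelial probe sets at E11.5 in lung (circles) and trachea (squares), 1 array each. The dotted line is the pseudocount and the dashed line the median of the table. Crb3 (104585_at), Prss8 (100909_at), Rab25 and Esrp1 have at least 1 signal above the median, and Spint2 lies under the pseudocount in both tissues.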

How the data were processed

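RNA from 8 samples was hybridised to 1-colour Affymetrix arrays. The deposited values are intensity, a linear MAS5 signal per probe set per the submitters' processing notes, with no version given; the values show a 2% trimmed mean of 1500 on each E18.5 array and 1501 on each E11.5 array, so the arrays had been scaled, and no detection calls were used. Depth does not apply, and the number of arrays limits the precision.

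Control probe sets (64 and 66) were left out. Symbols came from the platform annotation, where 34945 of 45037 E18.5 probe sets had 1 symbol, 932 several and 9160 none. Values were analysed as log2(signal + pseudocount), the pseudocount being the 20th percentile of the table (86.43 and 84.34), which compresses changes of dim genes. For a gene with several probe sets the brightest on average was taken, and genes whose mean was under the 40th percentile were dropped; 12625 genes remained for E18.5 and 5699 for E11.5. Bitransgenic and control lungs were tested by limma 3.58.1 in R 4.3.3 (lmFit and eBayes with trend, two-sided, Benjamini-Hochberg over all genes, threshold 0.05), and again over all probe sets. Exact permutation of 3 against 3 cannot go under p = 0.1. Nothing in the labels says the replicates were from separate litters or pools, so p-values cover the spread between these samples. The E11.5 arrays were compared by ratio, with no test. The script was tested on simulated data, 10 runs with 200 changed genes each. It recovered 14.8% of 1.5-fold, 53.7% of 2-fold and 91.1% of 4-fold changes, with 2.48% of calls false. Changes of 1.5-fold were thus mostly missed, so the lack of calls among the 10 genes does not show that they were unchanged. Promoter windows were RefSeq's (GRCm38.p6).

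The 10 genes, the lists and the alternatives were chosen with earlier results of these data known. The rule allowed the 10 genes, up to 4 genes of each list with the smallest p, and any that passed in related epithelial lists. It also allowed up to 3 genes per list at E11.5, and the 5 genes most like the 10 over the arrays. Not every gene so allowed is given. Cdh1, Esrp2, Elf5, Spint1, Scnn1a, Rab11a, Rab11b, Sftpc, Etv5, Slc34a2 and Twist2 were added after their E18.5 values were seen. At E11.5, Cdh1, Foxa2, Krt19 and Tfap2c were added in the same way. The lists covered epithelial adhesion, transcription and splicing, the protease network, polarity, mesenchyme, type II, type I, airway, endothelial, leukocyte, erythroid, mesothelial and neural crest genes.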

Additional observations from a re-analysis of the deposited data

How the results depend on the processing

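No pan-epithelial gene passed under 18 of the 19 alternatives; the exception was array weights, where 5 passed among 1339 genes in all. Epcam, Cxadr, Grhl2, Elf3, Esrp1, St14, Prss8 and Spint2 kept a positive log2 change in all 19. When all probe sets of a gene were averaged, the log2 change of Grhl2 was 0.17, against 0.41 by its brightest probe set, and that of Crb3 was 0.04, against 0.50. In the Actb-adjusted fit Rab25 had a log2 change of 0.13 and Crb3 one of -0.33, both reversed, and 20 genes passed in all. Over all genes 85 passed, between 22 and 97 when 1 array was left out (lowest without control 2; 40, 56 and 35 without bitransgenic 1, 2 and 3), and 187 without both arrays of lowest correlation, an alternative chosen after seeing the data. Pan-epithelial calls were 0 in each fit that left out 1 array. Over probe sets 120 passed, 63 with no filter and between 31 and 103 with 1 array left out. At E11.5 175 genes were over 2-fold apart, 95 when the pseudocount was made 4 times larger and 78 under a stricter filter (60th percentile). The causes were not tested. No paired analysis was possible because the labels give the groups no shared replicate numbers. With 3 arrays per group, changes of the size seen here had intervals that mostly span 0.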

Other observations

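Over the 6 E18.5 arrays the 10 genes shared a pattern in part. The correlation of a gene with the mean of the other 9 (standardised log2 values, 6 arrays that share the group difference, a description) was 0.90 for Cxadr, 0.89 for Esrp1, 0.84 for St14 and 0.81 for Grhl2, but 0.35 for Elf3, 0.45 for Crb3 and -0.65 for Rab25. Among the 12625 genes tested, the genes outside the set most like its mean were Igsf5, Ngef, Elp6, Atp13a4 and Boll, with Pearson correlations of 0.997, 0.996, 0.995, 0.992 and 0.988 over 6 arrays. Of these, Igsf5 and Atp13a4 rose in the bitransgenic lungs, by 0.85 and 1.42 on the log2 scale (limma adjusted p = 0.0232 and 0.00495). The arrays are few, and these genes were picked as the highest of all genes tested. The standardised mean of the 10 was itself higher in every bitransgenic lung than in every control. Genes picked for likeness to it therefore differ between the groups by selection, and their rise is no separate support.

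The remaining marker lists at E18.5 held few calls. Among 10 leukocyte genes Lyz2, which alveolar type II cells also express, fell (log2 change -1.28, limma adjusted p = 0.00946), 6 were positive, and the median was 0.07. Both measured erythroid genes, Alas2 and Slc4a1, had negative changes that did not pass (-0.83 and -0.69). Of 6 mesothelial genes Msln fell (log2 change -1.61, limma adjusted p = 0.00904), with a list median of -0.29. The 4 neural crest, pharyngeal and muscle genes had a median of -0.09 and no call; Eya1 had the smallest p (log2 change 0.73, limma adjusted p = 0.165). Summed signals were 52024 to 65928 in bitransgenic lungs, against 78731 to 86927 in controls, for the leukocyte list, and 22728 to 27519 in bitransgenic lungs, against 34425 to 52812 in controls, for the mesothelial list. Single genes carried much of both gaps: Lyz2 averaged 16752 in bitransgenic lungs and 41213 in controls, Msln 5548 in bitransgenic lungs and 17202 in controls, and Krt19, an epithelial keratin gene as well, 12899 in bitransgenic lungs and 18239.8 in controls.

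At E11.5 the type II genes past the filter had a median log2 ratio of lung over trachea of 0.44 over 4 genes, with Sftpc at 1503 in lung and 257 in trachea. The 10 endothelial genes had a median of -0.38 and the 5 neural crest, pharyngeal and muscle genes one of -0.51, with no test.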
